A study of Mus musculus with 6 samples.

Results

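The IFI200 genes are a cluster of interferon-inducible genes on mouse chromosome 1, and 5 of them were followed here by their names in the expression tables: Ifi203, Ifi204, Ifi205, Mnda and Aim2. All 5 were listed among the 24346 genes of each table, and 4 of them passed the filter on low values, which asked for 1 FPKM or more in 3 or more libraries. FPKM is the number of fragments per kilobase of transcript, scaled to the mapped fragments of the library. The cells were live Podoplanin-positive stromal cells of the large intestine, sorted without CD45, CD31 or EpCAM, from 12-week-old mice that had received 1% dextran sulfate sodium (DSS), which injures the colonic epithelium. The Pdgfra-cre group held 3 mice (numbers 13, 23 and 25) with Il10ra flox/flox alleles and a Pdgfra cre, which acts in cells that express this fibroblast gene. The control group held 3 mice (numbers 8, 9 and 43) with the Il10ra flox/flox alleles alone. The protein of Il10ra is the chain of the interleukin-10 receptor that binds the cytokine. Neither group was without DSS, and the controls carried no cre, so an effect of the cre itself and one of the deletion cannot be told apart. The comparison asked how these genes differ when fibroblasts carry the deletion, in a series whose title names type I interferon signaling.

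IFI200 proteins (PYHIN proteins) typically join an N-terminal pyrin domain, which binds other pyrin domains, to a C-terminal HIN domain, which binds DNA. AIM2 detects double-stranded DNA in the cytosol and recruits the adaptor ASC to form an inflammasome that activates caspase-1. Mouse IFI204 has been placed upstream of STING in the DNA response of macrophages, and mouse IFI205 has been reported to control Asc expression there. Interferons induce several genes of the cluster through ISRE elements (interferon-stimulated response elements) before their starts.

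Sequences before the gene starts are shown because the expressed members followed each other from library to library. The windows run from 250 bases before to 50 bases after an annotated start, are taken from RefSeq (GRCm38.p6) and are written 5′ to 3′ on the strand of the gene. Capitals mark the core of an ISRE on either strand, searched as GAAA, any 2 bases and GAAA again. The 5 windows are Ifi205 (chr1:174031706-174032005, minus strand), Mnda (chr1:173912997-173913296, minus), Ifi203 at the start that holds the motif (chr1:173942443-173942742, minus), AI607873 (chr1:173741760-173742059, minus) and Aim2 (chr1:173420354-173420653, plus). The name Mnda is a RefSeq synonym of Ifi211, and AI607873 is a synonym of Ifi207, a neighbour of the same family.
Ifi205: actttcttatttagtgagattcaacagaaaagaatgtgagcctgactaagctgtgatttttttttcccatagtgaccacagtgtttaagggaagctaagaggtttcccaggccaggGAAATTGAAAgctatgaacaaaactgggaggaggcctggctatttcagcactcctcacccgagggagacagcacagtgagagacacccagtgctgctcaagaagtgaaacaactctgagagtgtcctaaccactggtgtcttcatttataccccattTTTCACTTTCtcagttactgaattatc
Mnda: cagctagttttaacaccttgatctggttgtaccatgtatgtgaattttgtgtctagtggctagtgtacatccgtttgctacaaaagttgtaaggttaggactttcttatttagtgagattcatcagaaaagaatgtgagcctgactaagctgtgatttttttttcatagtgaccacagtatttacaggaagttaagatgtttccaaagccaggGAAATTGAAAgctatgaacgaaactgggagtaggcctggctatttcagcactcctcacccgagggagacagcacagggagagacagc
Ifi203: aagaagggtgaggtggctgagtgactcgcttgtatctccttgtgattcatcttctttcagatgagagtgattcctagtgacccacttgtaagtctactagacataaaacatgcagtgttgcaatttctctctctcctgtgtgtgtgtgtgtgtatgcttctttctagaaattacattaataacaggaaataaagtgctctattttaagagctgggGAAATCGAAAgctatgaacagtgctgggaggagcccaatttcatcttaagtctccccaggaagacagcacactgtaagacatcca
AI607873: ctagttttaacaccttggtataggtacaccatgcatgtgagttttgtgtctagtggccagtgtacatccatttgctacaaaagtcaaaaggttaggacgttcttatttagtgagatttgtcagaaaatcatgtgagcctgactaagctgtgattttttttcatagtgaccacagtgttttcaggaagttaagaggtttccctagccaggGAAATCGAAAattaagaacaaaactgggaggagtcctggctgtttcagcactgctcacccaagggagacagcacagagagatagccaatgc
Aim2: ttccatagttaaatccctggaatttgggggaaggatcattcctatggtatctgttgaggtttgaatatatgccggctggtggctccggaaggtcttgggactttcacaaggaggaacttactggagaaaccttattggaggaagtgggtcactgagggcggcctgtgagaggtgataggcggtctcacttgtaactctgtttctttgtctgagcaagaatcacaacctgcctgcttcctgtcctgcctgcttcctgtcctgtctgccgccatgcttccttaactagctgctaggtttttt
The Ifi205 and Mnda windows hold the same core, GAAATTGAAA, and the longest identical run between them is 45 bases. In Mnda the core begins 37 bases before the start, in Ifi203 35 bases before and in AI607873 41 bases before. In Ifi205 it begins 134 bases before the start, and a second match lies after the start on the other strand. The Aim2 window holds no match. It lies inside the listed span of the gene (173349547 to 173466040), so the start of that span was not searched.

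RefSeq windows were found for 10 of the 11 cluster genes that matched it by symbol or synonym, Ifi204 not among them. The ISRE core was present in 8 of their 12 windows and in 7 of the 10 genes, against 3.44% of all 32851 RefSeq windows of 300 bases. The 7 genes are Ifi203, Ifi205, Mnda, AI607873, Mndal, Pydc3 and Pydc4, of which Pydc3 and Pydc4 were close to 0 FPKM in most libraries. Their windows are not independent, since some are largely copies of each other. The longest identical run was 139 bases between windows of Ifi203 and Mndal, and 135 bases between those of Pydc3 and Pydc4. The windows of Aim2, Ifi202b and Pyhin1 held no ISRE core. A GAS element (TTCNNNGAA, an element of interferon-gamma responses) was present in 1 of the 12 windows, that of Ifi202b, against 8.3% of all windows. The ISRE and GAS patterns were searched on both strands, and a match in a window is a description of the sequence only.

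Ifi205, Ifi204, Mnda and Ifi203 had higher values in every Pdgfra-cre library than in any control library, by about a factor of 2 in the group means, and Aim2 was nearly undetected. Added up, the 5 members had 394, 644 and 360 FPKM in Pdgfra-cre libraries 13, 23 and 25, against 204, 310 and 156 FPKM in control libraries 8, 9 and 43. That sum averaged 466 ± 155 FPKM in Pdgfra-cre libraries and 224 ± 78.8 FPKM in control libraries (SD, n = 3 each), a ratio of 2.08. Markers of contractile cells had lower and markers of mesothelial cells higher sums in all 3 Pdgfra-cre libraries than in any control library, with values given beside the other marker lists, and their part in the IFI200 values was not tested. The sum of the 5 members made up 0.0845% of the summed FPKM of all genes in Pdgfra-cre libraries and 0.0437% in control libraries, as group means. These are RNA levels of a sorted population, in which more cells that express the genes and more RNA in each such cell cannot be told apart. None of the members passed the test over all genes (limma, Benjamini-Hochberg adjusted p of 0.181 to 0.402).

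The check of the mouse groups and of the sort comes before the single genes. Il10ra was listed at 0 in all 3 Pdgfra-cre libraries and in control libraries 8 and 9, and it had 0.418 FPKM in control library 43, so gene-level values could not show the deletion. The 9 stromal and fibroblast markers, among them Pdgfra, Pdpn and Dcn, were all expressed, with sums of 19015 to 19386 FPKM in Pdgfra-cre libraries and 15855 to 19189 FPKM in control libraries. Pdgfra, whose promoter drives the cre, had 155, 120 and 174 FPKM in Pdgfra-cre libraries 13, 23 and 25, against 178, 186 and 200 FPKM in control libraries 8, 9 and 43 (limma adjusted p = 0.411). Between 11188 and 11358 genes per library had an FPKM of at least 1. Read totals are not given here. A rough estimate, the median of low length-scaled values of 66 to 94 genes per library around which 85.7% to 94.7% of the lowest values lay within 20%, puts 1 fragment per kilobase at 0.114 to 0.119 FPKM in Pdgfra-cre libraries and 0.118 to 0.134 FPKM in control libraries. Pdgfra-cre library 23 stood apart, since its log2 values had a mean correlation of 0.950 with those of the remaining 5, while each of these had 0.960 to 0.970, and results are therefore also given without it.

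Ifi205, the most abundant member, had 257, 421 and 246 FPKM in Pdgfra-cre libraries 13, 23 and 25, against 132, 213 and 99.3 FPKM in control libraries 8, 9 and 43 (chromosome 1, 174011998 to 174031755, GRCm38). The groups did not overlap, but the lowest Pdgfra-cre library lay close to the highest control. The means were 308 ± 98.3 FPKM in Pdgfra-cre libraries and 148 ± 58.7 FPKM in control libraries (SD, n = 3 each). On the log2(FPKM + 1) scale the fold change was 1.08 ± 0.28 (SE; limma adjusted p = 0.210), and it was 0.83 without library 23. Ifi205 had a higher mean FPKM than 97.6% of tested genes in Pdgfra-cre libraries and than 94.5% in control libraries.

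Ifi204, the mouse relative of human IFI16, came second with 72.3, 98.6 and 57.8 FPKM in Pdgfra-cre libraries 13, 23 and 25, against 32.3, 53.9 and 28.4 FPKM in control libraries 8, 9 and 43 (chromosome 1, 173747293 to 173767069). Again the groups did not overlap, and Pdgfra-cre library 25 lay just above control library 9. The log2 fold change was 1.00 ± 0.26 (SE; limma adjusted p = 0.204), and 0.80 without library 23. The means were 76.3 ± 20.7 FPKM in Pdgfra-cre libraries and 38.2 ± 13.7 FPKM in control libraries (SD, n = 3 each).

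Mnda, whose human namesake is a nuclear antigen of myeloid cells, had 49.0, 86.9 and 42.9 FPKM in Pdgfra-cre libraries 13, 23 and 25, against 28.6, 30.2 and 20.6 FPKM in control libraries 8, 9 and 43 (chromosome 1, 173896339 to 173913087). The 3 controls lay together and below all Pdgfra-cre libraries. The log2 fold change was 1.09 ± 0.26 (SE; limma adjusted p = 0.181), the lowest adjusted p among the members, and it was 0.79 without library 23. The means were 59.6 ± 23.8 FPKM in Pdgfra-cre libraries and 26.4 ± 5.12 FPKM in control libraries (SD, n = 3 each).

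Ifi203, a further nuclear IFI200 protein gene, had 15.2, 37.1 and 13.2 FPKM in Pdgfra-cre libraries 13, 23 and 25, against 10.98, 12.9 and 8.03 FPKM in control libraries 8, 9 and 43 (chromosome 1, 173920400 to 173942866). The groups did not overlap, but libraries 13 and 25 lay near the highest control, and library 23 lay far above all others. The log2 fold change was 0.85 ± 0.35 (SE; limma adjusted p = 0.402), and it was 0.40 without library 23. The ratio of group means was 2.05 with all libraries and 1.33 without library 23.

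**Figure D1:**
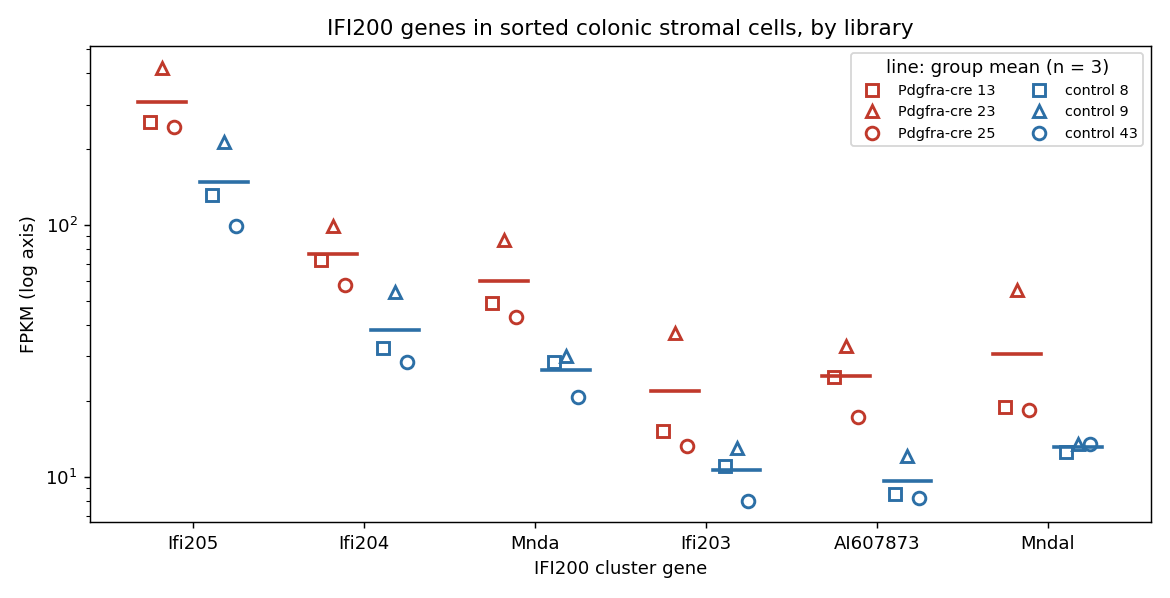
FPKM (log axis) of the 6 expressed IFI200 cluster genes in each library, with Pdgfra-cre libraries in red to the left and control libraries in blue to the right; horizontal lines are group means of 3 libraries. All 3 Pdgfra-cre libraries lie above all 3 control libraries for each gene, and library 23 is the highest.

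Aim2, the cytosolic DNA sensor of the family, was listed at 0 in 4 of 6 libraries (chromosome 1, 173349547 to 173466040). It had 0.316 FPKM in Pdgfra-cre library 13 and 0 in libraries 23 and 25, against 0.0453 FPKM in control library 43 and 0 in controls 8 and 9. By the rough depth estimate, on its longest coding transcript of 2839 bases, these 2 values correspond to about 7.55 fragments and about 1.08 fragments. On the same estimate 3 fragments, the upper limit that a count of 0 allows for counting error alone, come to between 0.120 and 0.141 FPKM of Aim2. Aim2 gave p = 1 in a two-sided exact permutation test, in which 3 libraries per group can reach 0.1 at the lowest. No sequence of 50 bases of the Aim2 transcript occurs in another cluster gene, so reads of the other members could not be divided with it at that length.

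The order of levels among the members was Ifi205, Ifi204, Mnda, Ifi203 and Aim2 in all 6 libraries, per length of transcript. Ifi205 stood clear of Ifi204 in each library, at 3.49 to 4.27 times its FPKM. Ifi204 and Mnda, the next in order, overlapped across libraries within each genotype. Their ranges were 57.8 to 98.6 FPKM for Ifi204 and 42.9 to 86.9 FPKM for Mnda in Pdgfra-cre libraries. In control libraries they were 28.4 to 53.9 FPKM for Ifi204 and 20.6 to 30.2 FPKM for Mnda.

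The 4 expressed members are to be read against all genes tested. Of 11429 tested genes, 0 passed an adjusted p of 0.05 in limma (0.0%), while 625 had an unadjusted p under 0.05 with a higher value in Pdgfra-cre libraries (5.47%) and 628 with a lower one (5.49%). Leaving out Pdgfra-cre library 25 gave 33 genes past the adjusted threshold, leaving out Pdgfra-cre library 13 gave 3 and leaving out control library 43 gave 2, none of them a member. All 4 expressed members had a log2 fold change above 0, as did 50.3% of tested genes. They had an unadjusted p under 0.05, from 0.00195 for Mnda to 0.0372 for Ifi203. Groups that did not overlap with higher values in Pdgfra-cre libraries were seen in 8.07% of tested genes and in 4 of 4 expressed members. Without library 23 they were seen in 12.6% of tested genes and still in 4 of 4 members. The median log2 fold change of the 4 members was 1.04, against 0.0012 for all tested genes, and without library 23 it was 0.79. By size of fold change the members ranked between 132 and 235 from the highest of the 11429 genes. The members were picked with earlier results of these data known, so these counts describe them and are no separate evidence.

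**Figure D2:**
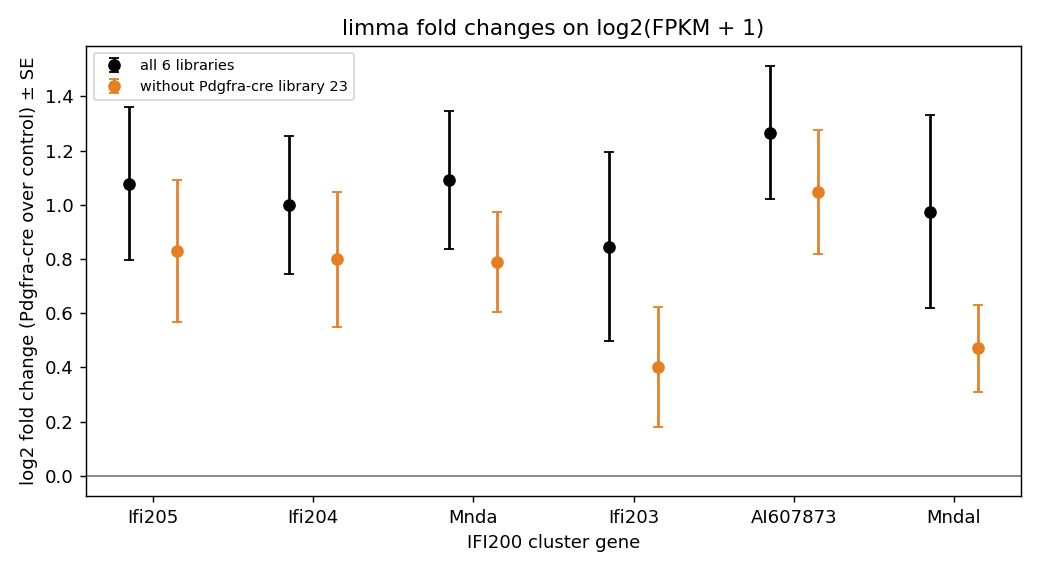
limma log2 fold changes, Pdgfra-cre over control on log2(FPKM + 1), with SE, for the 6 expressed cluster genes with all 6 libraries (black) and without Pdgfra-cre library 23 (orange). The values lie between 0.85 and 1.27 with all libraries and between 0.40 and 1.05 without library 23, where Ifi203 and Mndal are the lowest.

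The rest of the cluster was divided into a pair of expressed genes and genes near 0. AI607873 (Ifi207) had 24.8, 33.2 and 17.2 FPKM in Pdgfra-cre libraries 13, 23 and 25, against 8.55, 12.1 and 8.22 FPKM in control libraries 8, 9 and 43. Its groups did not overlap, and its log2 fold change of 1.27 ± 0.25 (SE; limma adjusted p = 0.156) was above that of each of the 4 expressed members. It was 1.05 without library 23, and without library 25 it was 1.499 and passed the threshold (limma adjusted p = 0.0463). Mndal, a gene similar to Mnda, had 18.8, 55.0 and 18.4 FPKM in Pdgfra-cre libraries 13, 23 and 25, against 12.5, 13.5 and 13.5 FPKM in control libraries 8, 9 and 43. The controls lay close together, and library 23 was far above all other libraries. Its log2 fold change was 0.97 ± 0.36 (SE; limma adjusted p = 0.344), and 0.47 without library 23.

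The other listed cluster genes, none of which passed the filter, were Ifi202b, Pydc3, Pydc4 and Pyhin1. Pydc3 (Ifi208) had 1.40, 0.595 and 0.580 FPKM in Pdgfra-cre libraries 13, 23 and 25, against 0.607 FPKM in control library 43 and 0 in controls 8 and 9 (exact permutation p = 0.3, two-sided). Pydc4 (Ifi213) lay between 0.0416 and 0.811 FPKM in Pdgfra-cre libraries and between 0 and 0.302 FPKM in control libraries. Ifi202b lay between 0 and 0.325 FPKM in Pdgfra-cre libraries and between 0 and 0.149 FPKM in control libraries. Pyhin1 (Ifi209) was listed above 0 only in control library 9 (0.108 FPKM). BC094916, a family symbol with no match in RefSeq, was listed at 0 in all libraries.

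Outside the cluster, 27 other protein-coding genes within 500 kb of its ends were listed, and 2 of them passed the filter. Ackr1, an atypical chemokine receptor gene, had 7.72, 8.66 and 9.50 FPKM in Pdgfra-cre libraries 13, 23 and 25, against 5.26, 5.44 and 6.41 FPKM in control libraries 8, 9 and 43 (log2 fold change 0.52 ± 0.19 SE; limma adjusted p = 0.331). Cadm3, a cell adhesion gene whose annotated span overlaps that of Ackr1, averaged 2.72 ± 0.619 FPKM in Pdgfra-cre libraries and 1.94 ± 0.254 FPKM in control libraries (SD, n = 3 each), and its groups overlapped. With all libraries their log2 fold changes were below those of the 6 expressed cluster genes. Without library 23 the ratio of group means was 1.51 for Ackr1 and 1.36 for Cadm3, against 1.33 for Ifi203 and 1.41 for Mndal.

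The cluster genes resemble each other, which bears on how reads are assigned. In GENCODE M21 (GRCm38), 72.9% of the windows of 50 bases of the Mnda transcript also occur in a transcript of another cluster gene, most of all Ifi205 (44.6%). The share was 49.6% for Ifi205, 29.7% for Ifi204 and 26.4% for Mndal. It was 5.86% for Ifi203 and 4.39% for AI607873. With windows of 100 bases the shares were 56.9% for Mnda, 41.5% for Ifi205, 16.8% for Ifi204, 7.63% for Mndal, 2.22% for Ifi203 and 0.271% for AI607873. The 2 genes with the least shared sequence, AI607873 and Ifi203, had the highest and the lowest log2 fold change of the 6 (1.27 and 0.85). Mndal and Ifi203 also overlap by annotation, since the GENCODE span of Mndal (173849126 to 173942491) contains Mnda and most of Ifi203. The read length and the handling of reads with several matches are not given in the sources used here, so the split between Mnda, Ifi205, Ifi204 and Mndal is uncertain.

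**Figure D3:**
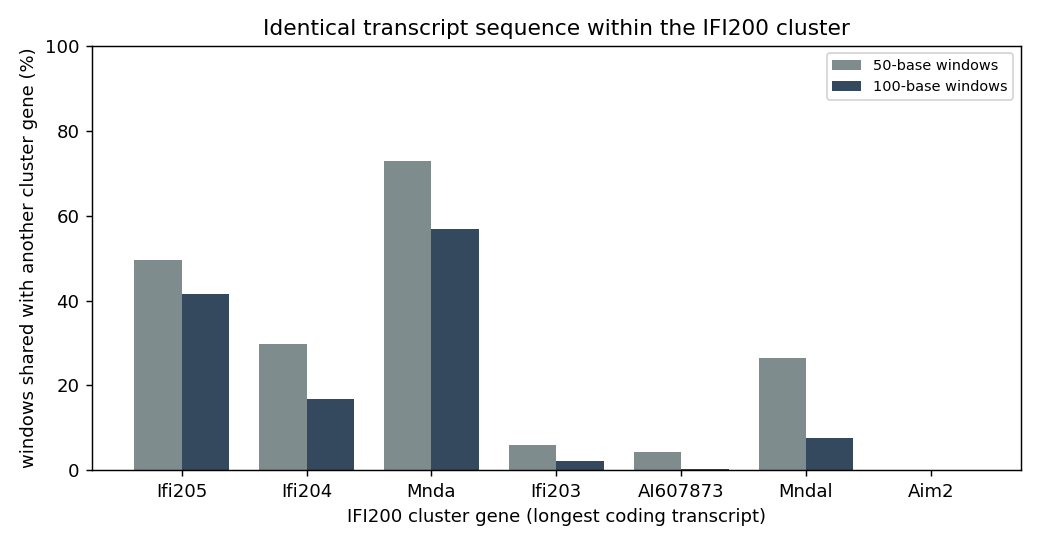
Percentage of 50-base (grey) and 100-base (dark) windows of the longest coding transcript of each gene that also occur in a transcript of another IFI200 cluster gene. Mnda shares most (72.9% and 56.9%), Ifi203 and AI607873 share little, and Aim2 shares none.

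The total of the cluster differed more between libraries than its proportions did. The 6 expressed cluster genes added up to 521 ± 184 FPKM in Pdgfra-cre libraries and 246 ± 81.0 FPKM in control libraries (SD, n = 3 each). Ifi205 made up 59.5 ± 2.39% of that sum in Pdgfra-cre libraries and 59.3 ± 3.91% in control libraries. Ifi204 held 14.9 ± 1.56% in Pdgfra-cre libraries and 15.5 ± 0.956% in control libraries, and Mnda held 11.3 ± 0.517% in Pdgfra-cre libraries and 11.1 ± 1.91% in control libraries. Between the lowest and the highest of the 6 libraries the total differed 4.11-fold, and the ratio of Ifi205 to Ifi204 differed 1.22-fold. Of the 6 shares, that of Mndal varied most, from 4.01% to 7.58% (1.89-fold). The ratio of Mndal to Ifi203 ranged from 1.04 to 1.68 and that of Ifi205 to Mnda from 4.62 to 7.07, both with the highest value in a control library. AI607873 had 4.85 ± 0.709% of the sum in Pdgfra-cre libraries and 4.01 ± 0.533% in control libraries, and these groups overlapped. These shares are a description, with no test.

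The expressed members put the 6 libraries in the same order. Library 23 was the highest, followed by Pdgfra-cre libraries 13 and 25 and then control libraries 9, 8 and 43. That order was read from Ifi205, which therefore holds it by definition. Counting Ifi205, it held in 4 of 4 expressed members and in 5 of the 6 expressed cluster genes, Mndal being the exception. It was seen in 73 of 11429 tested genes (0.639%). Mnda shares much of its transcript sequence with Ifi205, so the orders of these genes are not independent. The 5 genes outside the family whose log2 values lay closest to the mean profile of the 4 members, among 7874 genes with a mean of at least 5 FPKM, were Pi16, C3, Ly6c1, Bst2 and Ccl7. Their root mean square difference from that profile over 6 libraries was 0.085, 0.094, 0.099, 0.11 and 0.16 in log2 units, against a median of 0.65 for all candidates. The members themselves differed from their own mean by 0.11 (Mnda), 0.12 (Ifi205), 0.14 (Ifi204) and 0.18 (Ifi203).

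Pi16, a surface marker of a fibroblast subset, had 267, 425 and 224 FPKM in Pdgfra-cre libraries 13, 23 and 25, against 143, 220 and 108 FPKM in control libraries 8, 9 and 43. Bst2, which encodes the antiviral membrane protein tetherin, had 88.5, 179 and 75.8 FPKM in Pdgfra-cre libraries 13, 23 and 25, against 55.0, 78.2 and 45.3 FPKM in control libraries 8, 9 and 43. For Bst2, control library 9 lay above Pdgfra-cre library 25, so the groups overlapped, as they also did for Ly6c1 and Ccl7. The groups did not overlap for Pi16 and C3. Likeness is a description over 6 libraries that share their group means.

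**Figure D4:**
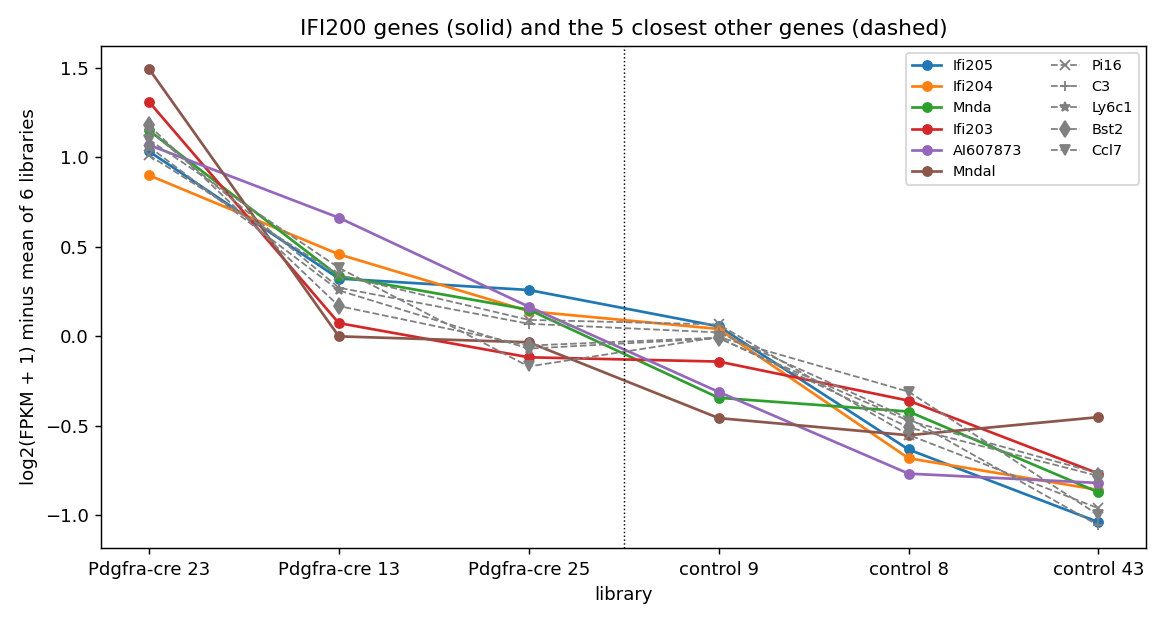
log2(FPKM + 1) of each gene minus its mean over the 6 libraries (y axis), with libraries (x axis) in the order set by Ifi205 and a dotted line between the genotypes; solid lines are cluster genes and dashed lines the 5 closest other genes. Library 23 is the highest for every gene drawn, and control library 9 lies near Pdgfra-cre library 25 for several of them.

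Partners of these sensors were read from 4 lists of other genes, in which 0 genes passed an adjusted p of 0.05 in limma. The list for signalling from interferon receptors, which induces the cluster, had 7 of 10 tested genes above 0 in log2 fold change, and its median was 0.35. Over all tested genes 50.3% were above 0. Unadjusted p under 0.05 with higher values in Pdgfra-cre libraries was seen for 5 of the 10, against 5.47% of all tested genes. Groups did not overlap with higher values in 5 of the 10 (8.07% of all tested genes) and with lower values in 1 (8.29%). That 1 was Ifngr1, with 211 ± 10.8 FPKM in Pdgfra-cre libraries and 246 ± 29.3 FPKM in control libraries (SD, n = 3 each; limma adjusted p = 0.560). Without library 23 the list had 7 of 10 above 0, against 50.1% of all tested genes, and a median of 0.26. Irf1, the most abundant gene of the list, averaged 507 ± 194 FPKM in Pdgfra-cre libraries and 305 ± 46.0 FPKM in control libraries (SD, n = 3 each; limma adjusted p = 0.332).

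The list for AIM2 inflammasome partners had 10 of 14 listed genes tested, 9 of them above 0, with a median log2 fold change of 0.30. Without library 23, 7 of the 10 were above 0 and the median was 0.20. Over all tested genes the shares above 0 were 50.3% with all libraries and 50.1% without library 23. Zbp1, a nucleic acid sensor gene, had 42.3, 142 and 23.5 FPKM in Pdgfra-cre libraries 13, 23 and 25, against 20.0, 27.3 and 12.1 FPKM in control libraries 8, 9 and 43 (limma adjusted p = 0.369). Casp4, the most abundant, averaged 70.1 ± 24.2 FPKM in Pdgfra-cre libraries and 48.3 ± 5.87 FPKM in control libraries (SD, n = 3 each; limma adjusted p = 0.453). Pycard, which encodes ASC, had 10.1 ± 5.40 FPKM in Pdgfra-cre libraries and 7.42 ± 0.940 FPKM in control libraries, and its groups overlapped. Without library 23 the mean of Pycard was 7.00 FPKM in Pdgfra-cre libraries, below that of the controls. Casp1 turned in the same way, with 7.93 FPKM in Pdgfra-cre libraries, or 5.26 FPKM without library 23, against 6.30 FPKM in control libraries. Mefv and Nlrc4 were listed at 0 in all libraries.

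Along the STING arm, 6 of 10 tested genes were above 0 with a median of 0.18, against 50.3% of all tested genes. Without library 23, 5 of 10 were above 0 with a median of 0.045, against 50.1% of all tested genes. Tmem173, which encodes STING, had 38.0 ± 18.01 FPKM in Pdgfra-cre libraries and 29.5 ± 7.57 FPKM in control libraries (SD, n = 3 each). Without library 23 the mean of Tmem173 in Pdgfra-cre libraries was 27.6 FPKM, below that of the controls. Mb21d1, which encodes the DNA sensor cGAS, had 1.42 ± 0.0359 FPKM in Pdgfra-cre libraries and 1.70 ± 0.589 FPKM in control libraries. Irf7, an interferon regulatory factor gene and the lowest p of the list, averaged 51.9 ± 25.6 FPKM in Pdgfra-cre libraries and 21.2 ± 5.50 FPKM in control libraries (limma adjusted p = 0.222). Ifnar2, a chain of the type I interferon receptor and the most abundant gene of this list, averaged 151 ± 28.9 FPKM in Pdgfra-cre libraries, or 135 FPKM without library 23, and 138 ± 20.2 FPKM in control libraries. Ifnb1 was listed at 0 in all libraries.

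The list for removal of DNA or RNA-DNA hybrids had 6 of 9 tested genes above 0 with a median of 0.18, against 50.3% of all tested genes. The list also held Adar, an RNA-editing gene, which was among those above 0 (log2 fold change 0.58). Trex1, the main cytosolic DNA exonuclease gene, had 76.1, 171 and 57.3 FPKM in Pdgfra-cre libraries 13, 23 and 25, against 43.6, 41.4 and 36.8 FPKM in control libraries 8, 9 and 43 (log2 fold change 1.14 ± 0.33 SE; limma adjusted p = 0.243). Its groups did not overlap. Dnase2a, a lysosomal DNase gene, was the 1 gene of the list with an unadjusted p under 0.05 and lower values in Pdgfra-cre libraries. It had 2.05, 1.15 and 4.97 FPKM in Pdgfra-cre libraries 13, 23 and 25, against 5.23, 5.75 and 4.25 FPKM in control libraries 8, 9 and 43 (log2 fold change -0.83 ± 0.35 SE; limma adjusted p = 0.424), and its groups overlapped. Pld3, the most abundant, averaged 103 ± 10.5 FPKM in Pdgfra-cre libraries and 105 ± 13.5 FPKM in control libraries (SD, n = 3 each).

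Myeloid cells also express several IFI200 genes, so markers of leukocytes were read beside them. The 5 general leukocyte markers added up to 2.28 to 12.4 FPKM in Pdgfra-cre libraries and 1.67 to 4.32 FPKM in control libraries, and 1 of the 5 passed the filter. Ptprc, which encodes CD45, had 0.0635, 1.04 and 0 FPKM in Pdgfra-cre libraries 13, 23 and 25, against 0.498, 0.352 and 0.170 FPKM in control libraries 8, 9 and 43. The 12 macrophage and monocyte markers added up to 27.1 to 66.0 FPKM in Pdgfra-cre libraries and 23.6 to 37.0 FPKM in control libraries, and 6 of the 12 passed the filter. The log2 fold change was positive in 4 of those 6, against 50.3% of all tested genes, and the median of the 6 was 0.085. Of the 12, 1 had an unadjusted p under 0.05 and groups that did not overlap, Cd14, which encodes a coreceptor for bacterial lipopolysaccharide. Cd14 had 7.37, 23.3 and 7.05 FPKM in Pdgfra-cre libraries 13, 23 and 25, against 4.24, 5.19 and 1.30 FPKM in control libraries 8, 9 and 43 (limma adjusted p = 0.283). Lyz2, the lysozyme gene and the most abundant of the list, had 15.7, 28.8 and 9.32 FPKM in Pdgfra-cre libraries 13, 23 and 25, against 20.3, 13.3 and 10.9 FPKM in control libraries 8, 9 and 43. Without library 23 the list median was -0.081, with 3 of 6 above 0, against 50.1% of all tested genes. Adgre1, a macrophage surface marker, lay between 0 and 0.278 FPKM and Itgam, the integrin of myeloid cells, between 0 and 0.0468 FPKM over all libraries.

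Neutrophil markers were highest in library 23. The 8 listed markers added up to 18.02, 180 and 11.1 FPKM in Pdgfra-cre libraries 13, 23 and 25, against 3.10, 11.3 and 1.10 FPKM in control libraries 8, 9 and 43. In 3 of the 8 the filter was passed, and S100a8 had 94.7 FPKM in library 23 against at most 9.42 FPKM in any other library. All 3 had a log2 fold change above 0, as did 50.3% of tested genes. Their median was 2.78, or 1.51 without library 23. Groups did not overlap, with higher Pdgfra-cre values, in 2 of the 3 with and without library 23. Over all tested genes these shares were 8.07% and 12.6%. Dendritic cell markers added up to 1.86 to 6.72 FPKM in Pdgfra-cre libraries, with library 23 the lowest, and to 2.49 to 4.61 FPKM in control libraries, and Flt3 was at 0 in all. The sums of T and NK cell markers were at most 1.48 FPKM in Pdgfra-cre libraries and 0.387 FPKM in control libraries. B and plasma cell markers added up to 1.80 to 10.9 FPKM in Pdgfra-cre libraries and 1.9965 to 4.89 FPKM in control libraries, and epithelial markers to 3.18 to 13.4 FPKM in Pdgfra-cre libraries and 0.289 to 8.84 FPKM in control libraries. Endothelial markers added up to 0.968 to 2.06 FPKM in Pdgfra-cre libraries and 1.41 to 3.08 FPKM in control libraries, and glia and neuron markers to 5.39 to 7.17 FPKM in Pdgfra-cre libraries and 3.74 to 12.5 FPKM in control libraries. How far the Podoplanin sort removed mesothelial or contractile cells was not tested. For these, 2 lists were added after their values were seen, and they are given as a description. The 6 contractile markers (Acta2, Myh11, Des, Tagln, Cnn1 and Actg2) added up to 408, 177 and 451 FPKM in Pdgfra-cre libraries 13, 23 and 25, against 771, 757 and 784 FPKM in control libraries 8, 9 and 43. Each of the 6 had lower values in all 3 Pdgfra-cre libraries than in any control library, as did 8.29% of tested genes. The same held for the 6 without library 23, where the share of tested genes with lower values was not counted. The share with higher values was 12.6% there, against 8.07% with all libraries. The median log2 fold change of the 6 contractile markers was -1.26, or -0.83 without library 23. The 7 mesothelial markers (Msln, Upk3b, Upk1b, Krt7, Krt19, Wt1 and Lrrn4) added up to 30.2, 86.5 and 15.8 FPKM in Pdgfra-cre libraries 13, 23 and 25, against 3.09, 13.6 and 5.13 FPKM in control libraries 8, 9 and 43. Of these, 6 passed the filter, and their median log2 fold change was 1.70, or 1.10 without library 23. Both sums had their extreme in library 23, where the IFI200 genes were highest. The part of any of these cells in the IFI200 values was not tested. Without library 23, the summed FPKM of the members was 1.69 times that of the controls.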

How the data were processed

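Values were gene-level FPKM deposited by the authors, 1 table per library. Per the labels' protocols, total RNA was amplified as full-length cDNA and made into libraries with a tagmentation kit, which does not mark strand. Per the submitters' processing notes, the build was mm10 and the tools were TopHat2 2.1.1, Bowtie2 2.2.8, SAMtools 0.1.18 and Cuffdiff 2.2.1. Their options, the annotation and read totals are not given in the sources used here. Strand could therefore not be used to assign reads where genes overlap. The overlapping genes named here all lie on the minus strand, so strand would not have separated them.

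Genes that reached 1 FPKM in 3 or more libraries were tested on log2(FPKM + 1) with limma 3.58.1 (R 4.3.3) with a variance trend, adjusted by Benjamini-Hochberg over all tested genes (threshold 0.05). Fold changes on this scale understate those of low genes. Genes below the filter were compared by an exact permutation test. The procedure was tested on simulated data, where recovery was required only for changes larger than those of the members. Recovery of changes of their size is not given here. Promoter windows came from RefSeq and transcripts from GENCODE M21. Depth was estimated from genes with 1 annotated transcript, as the median product of FPKM and length in kilobases between 0.05 and 0.18, a range chosen after seeing the values.

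Members, lists and tests were chosen with earlier results of these data known. Named genes were all cluster genes, neighbours that passed the filter, the lowest-p and most abundant gene of each list (1 of these is not reported here), and the 5 closest genes by profile; the values of Pycard, Casp1, Tmem173, Mb21d1, Dnase2a and of Pdgfra and other single marker genes were chosen after they were seen. Other pseudocounts, filters, scalings and weights and leaving out each library were tried.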

Additional observations from a re-analysis of the deposited data

How the results depend on the processing

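Ifi203, Ifi204, Ifi205 and Mnda kept a log2 fold change above 0 and an adjusted p above 0.05 in limma under all 15 alternatives. With all libraries their values ran from 0.61 (Ifi203, array weights) to 1.12 (Mnda, pseudocount 0.1). When 1 library was left out they ran from 0.40 to 1.12 for Ifi203, 0.80 to 1.27 for Ifi204, 0.83 to 1.37 for Ifi205 and 0.79 to 1.29 for Mnda. The lowest adjusted p among these was 0.0943 (Mnda without Pdgfra-cre library 25). AI607873 passed without that library (log2 fold change 1.499, adjusted p = 0.0463; 0.0463 to 0.379 over its alternatives), and the cause was not tested. The number of genes past the threshold was 0 with all libraries and 0 to 33 when 1 was left out, with 33 without Pdgfra-cre library 25, 3 without Pdgfra-cre library 13 and 2 without control library 43. The ratio of summed FPKM was 1.69 to 2.59 when 1 library was left out and 1.93 after rescaling to TPM. The Aim2 difference of 0.11 on the log2 scale was 0.51 with a pseudocount of 0.1, and without Pdgfra-cre library 13, which held its highest value, it was -0.021 (range -0.021 to 0.18 when 1 library was left out). Aim2 had no value under the filter of 5 FPKM, without the variance trend, or with quantile normalization or array weights, because it was below the filter. Alternatives for Mndal and AI607873, the counts of members that did not overlap and of list genes without library 23, and the mesothelial and contractile lists, were chosen after seeing the data. No paired analysis was possible because the mouse numbers are not shared between the groups.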
